A study of Mus musculus with 4 samples.

Results

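Antigen presentation genes of mouse major histocompatibility complex (MHC) class I and class II were followed in macrophages sorted from gastrointestinal stromal tumours. The members were every probe set whose annotation lists only genes with a symbol starting with H2-, or 1 of 16 named genes of peptide supply, loading and transcriptional control. This gave 78 of 22626 probe sets without controls, which list 47 of the 13319 genes named on the array. For 66 of them the annotation gives 1 gene and for 12 it gives several members, such as H2-DMb1 together with H2-DMb2. A signal from such a shared probe set cannot be assigned to either gene. The class I activator gene Nlrc5 had no probe set. Also left out were 2 probe sets that list members beside a gene outside the rule. These list H2-Ob with Gm20506, and H2-Q2 and H2-D1 with Gm38417.

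The macrophages came from the tumours of GIST mice that drank water with vehicle or with 600 mg/L of imatinib, a kinase inhibitor, over 2 weeks. Both groups carried the same tumour model, and its strain, genotype and age were not stated in the labels. By the design text the cells of 8 mice per group were pooled after flow cytometry and each pool was run on 2 arrays, while the titles call the 2 arrays biological replicates. All p-values therefore cover only how far the 2 arrays of a group differed, possibly for technical reasons, and an exact permutation test of 2 arrays against 2 could not go below a p of 0.333.

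MHC class I molecules display peptides from inside the cell. Their heavy chains (H2-K1 and H2-D1 in the classical group) pair with beta-2 microglobulin, B2m, and are loaded in the endoplasmic reticulum with peptides that the Tap1/Tap2 transporter brings in. The many other class I loci of the Q, T and M regions are called non-classical and have narrower tasks, and Cd1d1 is a related molecule that presents lipids to natural killer T cells. Class II molecules display peptides from engulfed material. Their alpha and beta chains assemble with the invariant chain Cd74, and the H2-DM accessory molecule exchanges the invariant chain's remnant for a peptide while H2-DO restrains H2-DM. Ciita is the co-activator that class II genes need, and it acts through the RFX, CREB and NF-Y proteins at the X1, X2 and Y boxes of their promoters.

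Those promoter elements are shared by class I and class II members, so short promoter windows are shown for members whose values are compared below. RefSeq promoter entries (assembly GRCm38.p6, from 250 bases before to 50 bases after the annotated start) were matched by symbol for 31 of the 47 genes, in 34 entries. Capitals mark the letters TGACG of the X2 box, ATTGG of the Y box and AGCAAC of the X1 box on the gene's strand. The first 6 windows hold an X2 and a Y box with 19 to 21 bases between them, and the other 4 hold no such pair.
H2-K1 (chr17:34000349-34000409, minus strand): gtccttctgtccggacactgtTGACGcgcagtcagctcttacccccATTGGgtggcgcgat
H2-D1 (chr17:35262972-35263032, plus strand): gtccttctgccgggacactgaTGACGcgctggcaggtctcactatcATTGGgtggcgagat
B2m (chr2:122147588-122147648, plus strand): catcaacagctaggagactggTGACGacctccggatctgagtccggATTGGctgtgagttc
H2-Q7 (chr17:35439069-35439129, plus strand): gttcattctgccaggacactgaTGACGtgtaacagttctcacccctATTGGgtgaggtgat
H2-M3 (chr17:37270167-37270227, plus strand): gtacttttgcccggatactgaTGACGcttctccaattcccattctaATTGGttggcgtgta
H2-Aa (chr17:34287857-34287917, minus strand): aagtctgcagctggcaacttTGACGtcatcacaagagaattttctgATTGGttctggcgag
H2-Eb1 (chr17:34305762-34305822, plus strand): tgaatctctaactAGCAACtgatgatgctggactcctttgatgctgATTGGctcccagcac
H2-DMb1 (chr17:34153084-34153144, plus strand): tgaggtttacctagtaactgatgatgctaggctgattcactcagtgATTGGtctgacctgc
H2-DMb2 (chr17:34145113-34145173, plus strand): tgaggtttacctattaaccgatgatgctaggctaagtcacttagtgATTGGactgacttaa
H2-Q2 (chr17:35342180-35342240, plus strand): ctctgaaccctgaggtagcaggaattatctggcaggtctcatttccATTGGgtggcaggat

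Both strands were searched for single motifs. ATTGG was present in 29 of 34 member promoters and in 37.4% of all 32851 promoters searched. TGACG was present in 14 (20.8% of all) and AGCAAC in 7 (14.8% of all). The interferon-stimulated response element was present in 4 (3.44% of all), namely B2m, Erap1, H2-T23 and H2-T22. Enhancer A, the NF-kappaB element of class I genes, was present in 4 member entries (2 of H2-K1, 1 each of H2-D1 and H2-Q6) among 10 promoters in all (0.0304%). TGACG followed by ATTGG at 19 to 21 bases on the gene's strand, a spacing chosen after the positions were seen, was found in 7 member entries of 6 genes and in 38 promoters in all (0.116%). A match is a description of letters and not of bound protein.

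**Figure D1:**
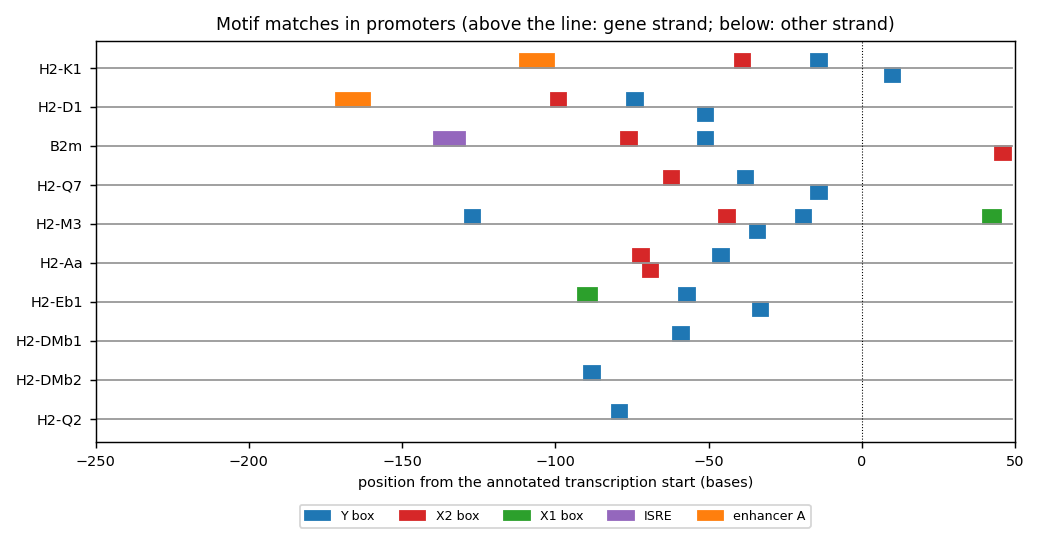
Motif matches in the 10 promoters whose windows are printed, by position from the annotated start in bases; boxes above a line are on the gene's strand and boxes below it on the other strand. The X2 and Y boxes of H2-K1, H2-D1, B2m, H2-Q7, H2-M3 and H2-Aa lie 19 to 21 bases apart.

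Signals are MAS5 intensities on a linear scale. Differences are imatinib minus vehicle in log2(signal + 32) with their standard error (SE), folds are on the same scale and understate the change of dim genes, and errors of signals are SD (n = 2 arrays per group). A probe set was called at a Benjamini-Hochberg adjusted p below 0.05 in limma over all 13576 probe sets with a mean signal of at least 82.9. Of the 78 members, 64 passed this filter and 14 lay below it. Every member below it had signals of 81.6 or less on all arrays.

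The sort and the scale bear on every value. Of 15 macrophage markers 12 were higher and none lower with imatinib (median log2 difference 0.39). Their differences were not uniform and reached 1.16. The 3 that were not called were the brightest, Csf1r (0.12), C1qb (-0.09) and C1qa (0.05). All 15 epithelial markers (median -2.18) and 6 of 10 tested fibroblast markers were lower. None of 9 T cell and 6 endothelial markers was called. Of 9 tested B and plasma cell markers 1 was higher and 1 lower, and of 9 tested dendritic markers 3 were higher. Among all tested probe sets 6.2% were higher and 7.38% lower. Jchain of the B and plasma list had group means of 30542 (vehicle) and 32217 (imatinib), beside 27880 and 30280 for Csf1r. The part of B, plasma and dendritic cell RNA in the class II, H2-DM and Ciita values was not tested. The summed epithelial signal was 40304 to 40808 on the vehicle arrays and 7852 to 8048 on the imatinib arrays. Scaling the arrays to equal macrophage markers lowers every difference by 0.46, and equal array medians raise every difference by 0.16. The Gapdh 3'/5' signal ratio, a sign of RNA quality, was 2.91 and 2.76 under vehicle against 2.34 and 2.09 under imatinib, without overlap. Its part in the differences was not tested. On pooled RNA, fewer cells of a type and less RNA per cell cannot be told apart.

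In all, 9 member probe sets were higher (14.1% of 64) and 4 were lower (6.25%), against 6.2% higher and 7.38% lower among all tested probe sets (13.6% called in either direction). Of the 4 lower ones, H2-T18 and H2-Q5/H2-K1 passed the signal filter only through their vehicle arrays. Both imatinib arrays lay above both vehicle arrays for 22 members (34.4%, against 26.5% of all) and below them for 11 (17.2%, against 28.1%). By gene, taking the brightest probe set that names 1 gene, 6 of 31 tested genes were higher and 2 lower. Over all genes, a fit with 1 probe set per gene made 1272 calls, 550 of them higher. The number of genes it tested is not given here, so no gene-level share stands beside 6 of 31. The median difference over the members was 0.07, against -0.01 over all tested probe sets. On the macrophage-marker scale 2 members were higher and 38 lower, where 171 of all probe sets were higher and 7882 lower. With equal array medians 14 members were higher and 2 lower, where 1583 of all 2286 called probe sets were higher. Leaving out any 1 array keeps a single array in a group and lowered the number of calls among all probe sets too. Member counts from those fits are therefore not compared here. Probe sets of 1 gene share their target, so the counts are not counts of independent genes.

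**Figure D2:**
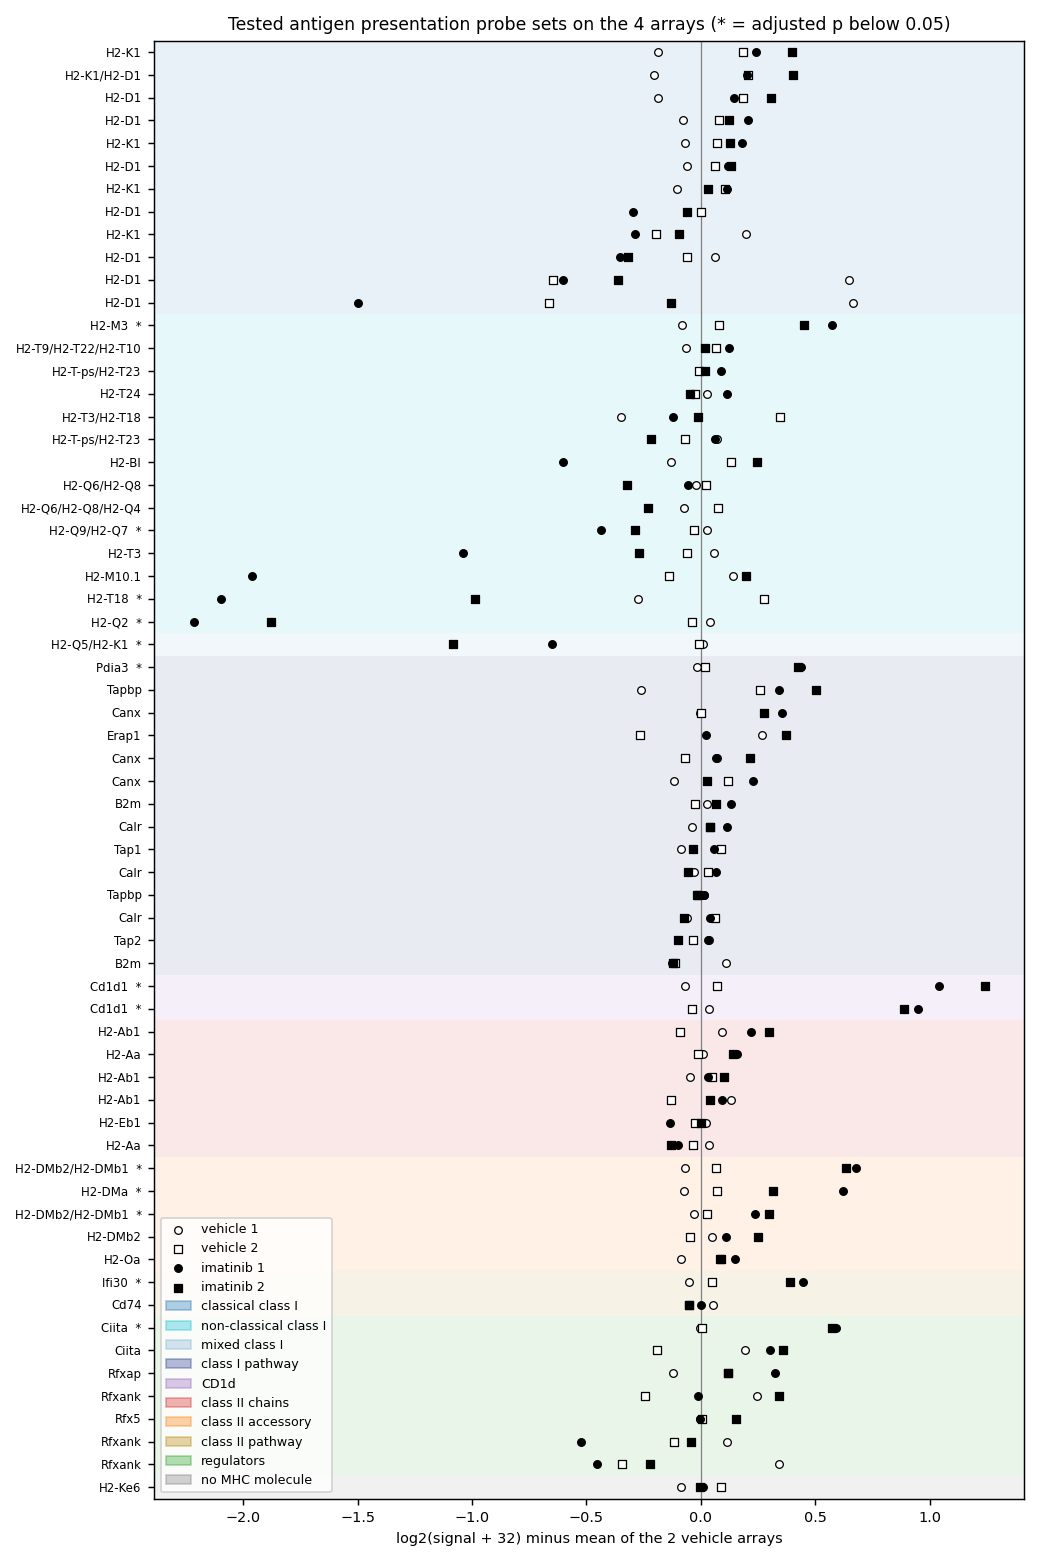
log2(signal + 32) of each of the 64 tested members on each of the 4 arrays, minus the mean of the 2 vehicle arrays; rows are probe sets grouped by class, open symbols are vehicle, filled symbols are imatinib, and an asterisk marks an adjusted p below 0.05. Cd1d1 lies to the right and H2-Q2 and H2-T18 to the left. The differences of the classical class I rows run from -0.81 (a dim H2-D1 probe set) to 0.32, and those of the class II chain rows from -0.11 to 0.26.

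The classical class I heavy chains did not pass the test. None of 12 tested probe sets listed for H2-K1 and H2-D1 alone was called, with a median difference of 0.10 and a range from -0.81 to 0.32 (limma, 0 at an adjusted p below 0.05). The brightest H2-K1 probe set had signals of 16212.5 and 18717 (vehicle) and 18857 and 17803 (imatinib), so that the groups overlapped (0.07 ± 0.08 SE, adjusted p = 0.64). The brightest H2-D1 probe set had 15738 and 17537 with vehicle and 19189 and 18094 with imatinib (0.17 ± 0.08 SE, adjusted p = 0.21). Here the imatinib arrays were the higher ones, by less than the spread allowed a call.

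The probe sets of these genes did not move alike. Another bright probe set of H2-D1 had 9033 and 9050 with vehicle and 7359 and 8658 with imatinib, a difference of -0.18 ± 0.09 (SE). The lowest value of the class, -0.81 ± 0.48, belonged to a dim H2-D1 probe set whose vehicle arrays differed by themselves (252 and 80.9, against 31.4 and 132). Class I heavy chains are similar in sequence. In this group 12 of the 14 probe sets carry the suffix that marks possible hits on several transcripts. Which of the 2 genes, or which related locus, a signal comes from is therefore uncertain. A dimmer H2-K1 probe set (1686 and 2192 against 2282 and 2546.5) and the probe set shared by both genes passed as higher with equal array medians (0.48 and 0.46) and without vehicle replicate 2 (0.51 and 0.51), but not otherwise (0.32 and 0.30 as reported). On the macrophage-marker scale the class median was -0.36.

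Of 14 tested probe sets for the light chain and the loading machinery, 1 was called, where 13.6% of all tested probe sets were called. Pdia3, which encodes the oxidoreductase ERp57 of the loading complex, had signals of 2831 and 2899 with vehicle and 3889 and 3859 with imatinib. It rose 1.35-fold (0.43 ± 0.08 SE, adjusted p = 0.0049), with both imatinib arrays above both vehicle arrays, but was at -0.03 on the macrophage-marker scale. Without the mean-variance trend its call was lost (adjusted p = 0.096). None of the other 13 tested probe sets of this pathway was called.

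B2m, the light chain shared by all class I molecules, showed 2 probe sets on opposite sides. One had 32723 and 28055 with vehicle and 27791 and 27817 with imatinib (-0.12 ± 0.08 SE), and the other had 22772 and 21987 against 24508 and 23429 (0.10 ± 0.07). In each the groups were separated, in opposite directions, and neither passed (adjusted p = 0.38 and 0.41). The peptide transporter genes had differences of 0.01 ± 0.10 for Tap1 (2028 and 2290 against 2244 and 2100.5) and -0.03 ± 0.11 for Tap2 (1097 and 1044 against 1094 and 996). Their groups overlapped. Tapbp, the bridging chaperone tapasin, had 5347 and 5244 against 5339 and 5228 in its brightest probe set (-0.0032 ± 0.08), and its dim one differed by 0.42 ± 0.21 (adjusted p = 0.24).

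The lectin chaperones that hold unfinished heavy chains were also not called. Canx differed by 0.13 to 0.32 over 3 probe sets, and the dimmest of these passed with equal array medians (0.48). Calr differed by -0.02 to 0.08 over 3 probe sets. Erap1, the peptidase that trims peptides in the endoplasmic reticulum, had 709 and 480.2 against 594 and 766 (0.20 ± 0.18 SE, adjusted p = 0.55), with overlapping groups. Of 4 measured immunoproteasome and proteasome activator genes, which supply class I peptides, none passed (median 0.15), with Psmb8 at 0.21 and Psme1 at 0.17. None of 6 other loading and trimming genes passed either (median -0.05), with the chaperone genes Hspa5 at 0.05 and Hsp90b1 at -0.26.

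The non-classical class I loci went in different directions. Of 14 tested probe sets 3 were lower (21.4%, against 7.38% of all) and 1 was higher (7.14%, against 6.2% of all). H2-T18, among the 3 lower ones, passed the signal filter only through its vehicle arrays. The median difference was -0.18, or -0.64 on the macrophage-marker scale and -0.02 with equal array medians. Both imatinib arrays lay below both vehicle arrays for 6 of them (42.9%, against 28.1% of all) and above for 2 (14.3%, against 26.5%).

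H2-M3, which presents N-formylated peptides of bacteria and mitochondria, had signals of 2618 and 2932 with vehicle and 4138 and 3799 with imatinib. It rose 1.43-fold (0.51 ± 0.09 SE, adjusted p = 0.0038), with separated groups, and was at 0.05 on the macrophage-marker scale. Its call was lost without the trend and without imatinib replicate 1 (adjusted p = 0.090 and 0.0545).

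H2-Q2, a Q region locus, had signals of 572 and 539 with vehicle and 94.5 and 128 with imatinib. It fell by 2.05 ± 0.18 (SE, adjusted p = 2.9e-05) and was lower under every alternative run, with differences from -2.33 to -1.83, or -2.51 on the macrophage-marker scale. The left-out probe set that lists H2-Q2 and H2-D1 beside Gm38417 was dim, at 105 and 79.1 against 89.3 and 69.8, with overlapping groups. The probe set shared by H2-Q7 and H2-Q9, which encode the Qa-2 antigen, was brighter, at 8632.5 and 8295 against 6242 and 6931. It fell by 0.36 ± 0.08 (SE, adjusted p = 0.013). That call was lost with equal array medians (-0.20, adjusted p = 0.32), without the filter, without the trend, and without vehicle replicate 1 or imatinib replicate 1. The shared probe sets of H2-Q6 and H2-Q8 (-0.19) and of H2-Q4, H2-Q6 and H2-Q8 (-0.23) were not called, although both imatinib arrays were the lower ones in each.

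The dim T region probe sets included 1 more call. H2-T18 and H2-T3 encode thymus leukaemia antigen, a class I molecule known from intestinal epithelium. The H2-T18 probe set had 119 and 189 with vehicle and 10.7 and 60.02 with imatinib, a fall by 1.54 ± 0.39 (SE, adjusted p = 0.025) with separated groups. It was at the lower edge of the signal filter and passed it only through its vehicle arrays (mean 153.7 with vehicle, 35.4 with imatinib). It lost its call under 5 of 13 alternatives other than the macrophage-marker scale (difference -2.50 to -0.99). The difference was -1.27 without vehicle replicate 2 and -0.99 without imatinib replicate 1. The tested probe set of H2-T3 alone differed by -0.66 ± 0.32 (adjusted p = 0.23) and the one shared by both genes by -0.07 ± 0.29. A dim probe set listed for H2-Q5 and H2-K1 together had 167 and 164 against 93.7 and 61.1 (-0.87 ± 0.25 SE, adjusted p = 0.045). It too passed the filter only through its vehicle arrays (mean 165.2 with vehicle, 77.4 with imatinib). It kept its call in 3 of 13 alternatives other than the macrophage-marker scale (adjusted p 0.038 to 0.19), and it lost it whichever array was left out.

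On the same arrays the epithelial markers differed by -2.89 (Krt19) to -1.36 (Vil1), with Epcam at -2.42. The 10 tested fibroblast markers differed by -1.51 (Loxl1) to -0.18 (Thy1). The part of epithelial or fibroblast RNA in the falls of H2-Q2, H2-T18, H2-Q7/H2-Q9 and H2-Q5/H2-K1 was not tested.

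The other non-classical loci were not called. The brightest of them, a probe set listed for H2-T23 and H2-T-ps, had 15743 and 15592 with vehicle and 16636.5 and 15859 with imatinib (0.05 ± 0.07 SE, adjusted p = 0.70). H2-T23 encodes Qa-1, which displays signal peptides of other class I chains to natural killer cell receptors. The probe set listed for H2-T9, H2-T10 and H2-T22, a group that includes ligands of gamma-delta T cells, differed by 0.07 ± 0.09. H2-T24 differed by 0.03 ± 0.17. H2-Bl (-0.18 ± 0.29) and H2-M10.1 (-0.88 ± 0.54) had arrays that differed widely within the imatinib group. H2-M10.1 was at 12.1 on one imatinib array and 165 on the other, and it passed as lower without imatinib replicate 2 (-1.96). The single probe sets of H2-Q10, H2-Q5, H2-M9 and H2-D4, and further ones of H2-T3 and of the H2-T9 group, lay below the filter. RefSeq lists H2-T10, H2-Bl, H2-Q5 and H2-D4 as transcribed pseudogenes.

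Cd1d1 showed the largest increase of the members. Its 2 probe sets had signals of 463 and 513 with vehicle, rising to 1037 and 1196 with imatinib, and of 299 and 283 against 591 and 564. In both the imatinib arrays lay well above the vehicle arrays. The increases were 2.21-fold (1.14 ± 0.12 SE, adjusted p = 0.00014) and 1.89-fold (0.92 ± 0.14, adjusted p = 0.0012). These were the 2 members that were still higher on the macrophage-marker scale (0.68 and 0.46, adjusted p = 0.0020 and 0.018), and they were called under every alternative in which they were tested. The related gene Cd1d2 lay below the filter (71.5 and 26.1 as group means).

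Related class I-like genes, which bind other ligands, were measured beside it. Hfe, a regulator of iron uptake, was higher 1.83-fold and Fcgrt, the neonatal Fc receptor that also pairs with B2m, 1.595-fold, while Procr (0.09) and Azgp1 (-0.06) were not called. Dendritic and B cells also carry CD1d. Of 9 tested dendritic cell markers 3 were higher, namely Cd209a (2.80-fold), Flt3 (2.21-fold) and Kmo (1.61-fold), and of 9 B and plasma cell markers Cd22 was higher and Ighm lower. The summed dendritic signal was 4107 to 4253 with vehicle and 4941 to 5078 with imatinib, while the defining dendritic marker Zbtb46 and the B cell marker Pax5 lay below the filter. Their part in the Cd1d1 values was not tested.

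**Figure D3:**
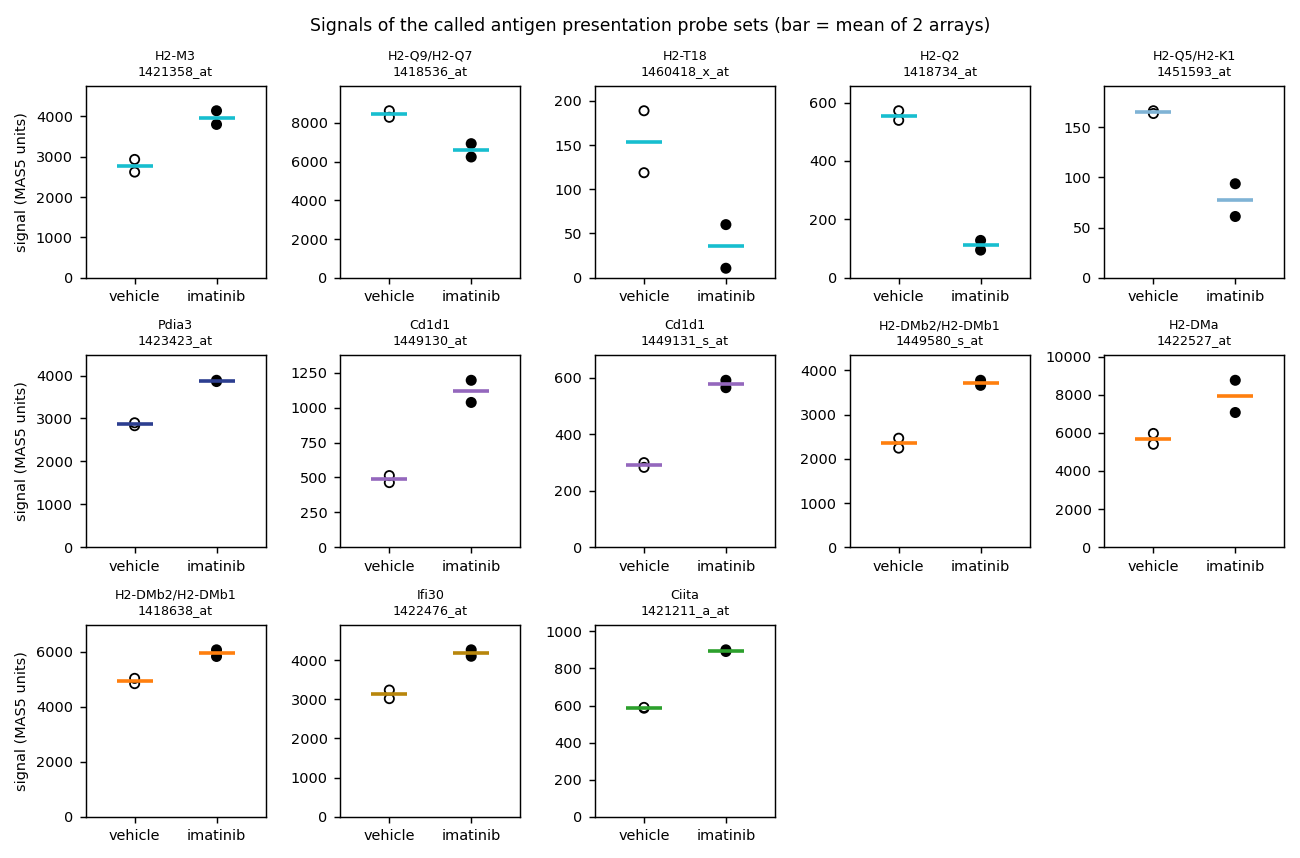
MAS5 signal of the 13 called member probe sets, with vehicle arrays open, imatinib arrays filled and a bar at the mean of the 2 arrays; each panel has its own axis from 0. The 2 imatinib arrays lie above the 2 vehicle arrays in 9 panels and below them in 4.

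The class II chains were among the brightest probe sets of the arrays and none was called (limma, 0 of 6 tested at an adjusted p below 0.05). The median difference was 0.07, with a range from -0.11 to 0.26, and the dimmest of the 6 had a signal percentile of 98.8. H2-Eb1, the beta chain of I-E, had signals of 33839 and 32701 with vehicle and 30305 and 33301 with imatinib, with overlapping groups (-0.07 ± 0.07 SE, adjusted p = 0.62). H2-Aa, the alpha chain of I-A, had 36842.5 and 35057 against 33547 and 32876.5 in one probe set (-0.11 ± 0.07) and 24791 and 24406 against 27418.5 and 27105 in the other (0.15 ± 0.07). As for B2m, the groups were separated in both probe sets and in opposite directions.

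H2-Ab1, the beta chain of I-A, gave the same sign in 3 probe sets. The brightest had 27102 and 28979 with vehicle and 28625 and 30106 with imatinib (0.07 ± 0.07 SE), and the dimmest had 12464 and 10989 against 13648 and 14383 (0.26 ± 0.08, adjusted p = 0.061). The dimmest passed with equal array medians (0.42) and with a robust prior (adjusted p = 0.046), and on the macrophage-marker scale all 3 were negative (-0.39, -0.39 and -0.20). The 3 probe sets of H2-Ea, the alpha chain of I-E, had signals of 30.9 or less on every array. RefSeq lists H2-Ea of the reference strain as a transcribed pseudogene.

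The highest signal of any probe set was 47681, and the class II chains and B2m reached 36842.5 and 32723. Whether such bright probe sets lose range was not tested, since scanner values were not used here.

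Of 5 tested probe sets for the accessory molecules that edit class II peptides, 3 were higher, those of H2-DMa and the 2 shared by H2-DMb1 and H2-DMb2. Among all tested probe sets 6.2% were higher. The median difference was 0.27, or -0.19 on the macrophage-marker scale. H2-DMa had 5401 and 5969 with vehicle and 8758 and 7068 with imatinib. It rose 1.38-fold (0.47 ± 0.10 SE, adjusted p = 0.014; 0.01 on the macrophage-marker scale). Its 2 imatinib arrays differed from each other by more than the nearest vehicle and imatinib arrays did, and its call was lost without vehicle replicate 1 (adjusted p = 0.093), imatinib replicate 1 (0.11), the signal filter (0.086) or the trend (0.15).

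H2-DMb1 and H2-DMb2, adjacent genes for the beta chain of H2-DM, share 2 probe sets. The dimmer one had 2243 and 2468 against 3778 and 3664 and rose 1.57-fold (0.65 ± 0.09 SE, adjusted p = 6.0e-04; 0.19 on the macrophage-marker scale). The brighter one had 4833 and 5025 against 5819.9 and 6061 and rose 1.204-fold (0.27 ± 0.08, adjusted p = 0.043), but it was lower on the macrophage-marker scale (-0.19, adjusted p = 0.039) and lost its call whichever array was left out. The probe set of H2-DMb2 alone was dim (268 and 248 against 281 and 312) and not called (0.18 ± 0.16). H2-Oa, a chain of the inhibitor H2-DO, was not called either (455 and 518 against 543 and 516, 0.12 ± 0.13), and its groups overlapped. The left-out probe set that lists H2-Ob beside Gm20506 had 126 and 101 against 86.3 and 92.2.

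Cd74, the invariant chain, was not called, while Ifi30 was higher. Cd74 had 22761 and 21127 with vehicle and 21951 and 21170 with imatinib, with overlapping groups (-0.02 ± 0.07 SE, adjusted p = 0.88). Ifi30, a lysosomal thiol reductase that unfolds antigens for class II loading, had 3017 and 3236 against 4264 and 4099.6. It rose 1.34-fold (0.42 ± 0.08 SE, adjusted p = 0.0073) and was at -0.04 on the macrophage-marker scale. Its call was lost without vehicle replicate 1, imatinib replicate 1 or the trend (adjusted p = 0.061, 0.067 and 0.11).

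Of 9 other tested genes of the class II route 4 were higher and none lower (median 0.10), where 6.2% of all tested probe sets were higher. These were the protease genes Lgmn (1.535-fold), Ctsl (1.53-fold), Ctsb (1.29-fold) and Ctsz (1.203-fold). The macrophage-marker scale lowers every difference by 0.46. That is more than the differences of Ctsb (0.37) and Ctsz (0.27) and less than those of Lgmn (0.62) and Ctsl (0.61). Ctss, the protease that trims the invariant chain in macrophages and dendritic cells, was at -0.05, and Sppl2a, which clears its remnant, at -0.16. Neither passed.

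Among the regulators Ciita rose in 1 of 2 probe sets. The called one had 586 and 590.1 with vehicle and 901 and 892 with imatinib, 1.497-fold (0.58 ± 0.11 SE, adjusted p = 0.0058; 0.12 on the macrophage-marker scale). The other had 645 and 487 against 699 and 729 (0.33 ± 0.14, adjusted p = 0.17) and passed with equal array medians (0.49). In both the imatinib arrays were the higher ones. Without imatinib replicate 1 the adjusted p of the called probe set was 0.059.

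The RFX subunits, which bind the X1 box, were dim and not called. Rfx5 had 298 and 299.7 against 298 and 336 (0.08 ± 0.15 SE) and Rfxap 247 and 298 against 348 and 298 (0.22 ± 0.17). The 3 probe sets of Rfxank ranged from -0.34 to 0.16. All of these had overlapping groups.

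Of 16 further tested regulators 1 was higher, the interferon receptor kinase gene Jak1 (1.42-fold), and none was lower (median 0.13). The brightest others, Irf8 and the interferon gamma receptor gene Ifngr1, were at 0.13 and 0.16. Of 16 interferon response genes Gbp3 (1.32-fold) and Cxcl9 (1.31-fold) were higher and none was lower, and the median was 0.02, with Iigp1 at 0.04 and Rsad2 at -0.01. Among all tested probe sets 6.2% were higher. The shift of 0.46 on the macrophage-marker scale is more than the differences of Gbp3 (0.40) and Cxcl9 (0.39) and less than that of Jak1 (0.51).

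H2-Ke6, whose symbol starts with H2- but which encodes a hydroxysteroid dehydrogenase and no MHC molecule, had 295 and 336 against 317 and 314 (0.0016 ± 0.15 SE). It lies in the MHC region and was not called.

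**Figure D4:**
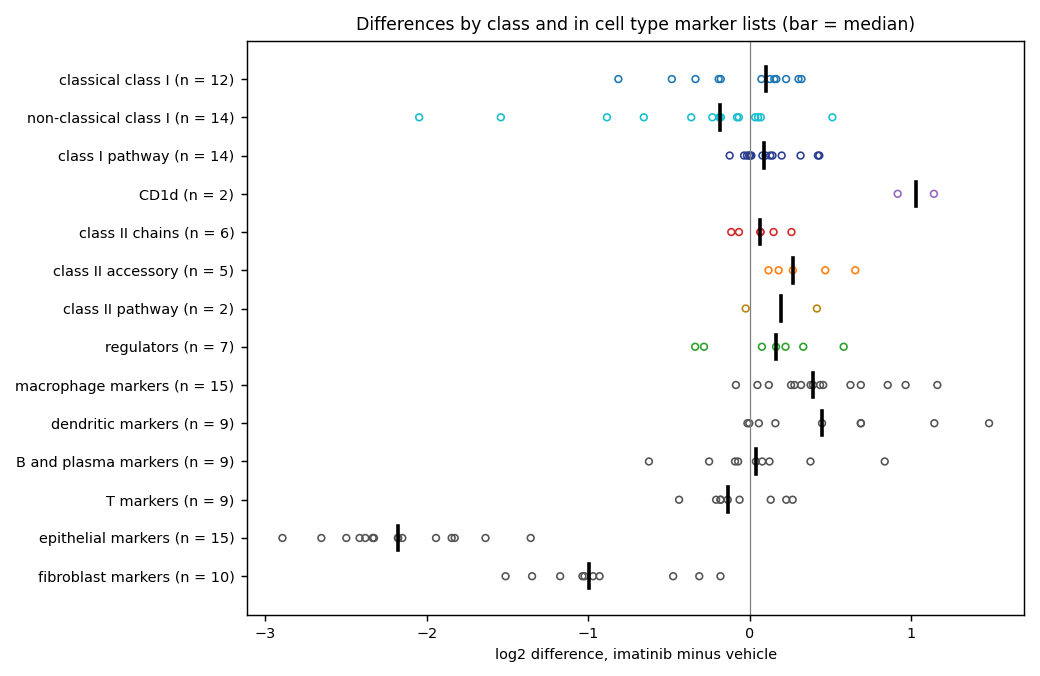
log2 difference, imatinib minus vehicle, of each tested member by class and of each tested marker gene by cell type list, with a black bar at the median. The classical class I, class II chain and class I pathway medians (0.10, 0.07 and 0.09) lie near 0, the accessory class II median at 0.27, Cd1d1 near 1 and the non-classical class I median at -0.18.

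Set side by side, the classes had called shares of 0 of 12 (classical class I), 4 of 14 (non-classical class I), 0 of 6 (class II chains), 3 of 5 (class II accessory) and 1 of 14 (class I pathway), where 13.6% of all tested probe sets were called. Per array, the median deviation of the accessory class II probe sets from the vehicle mean was -0.07 and 0.07 under vehicle, against 0.24 and 0.30 under imatinib. That of the class II chains was 0.03 and -0.03, then 0.06 and 0.07. For classical class I it was -0.07 and 0.07 against 0.12 and 0.08, and for non-classical class I -0.01 and 0.01 against -0.18 and -0.13. The differences between classes were not tested.

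**Figure D5:**
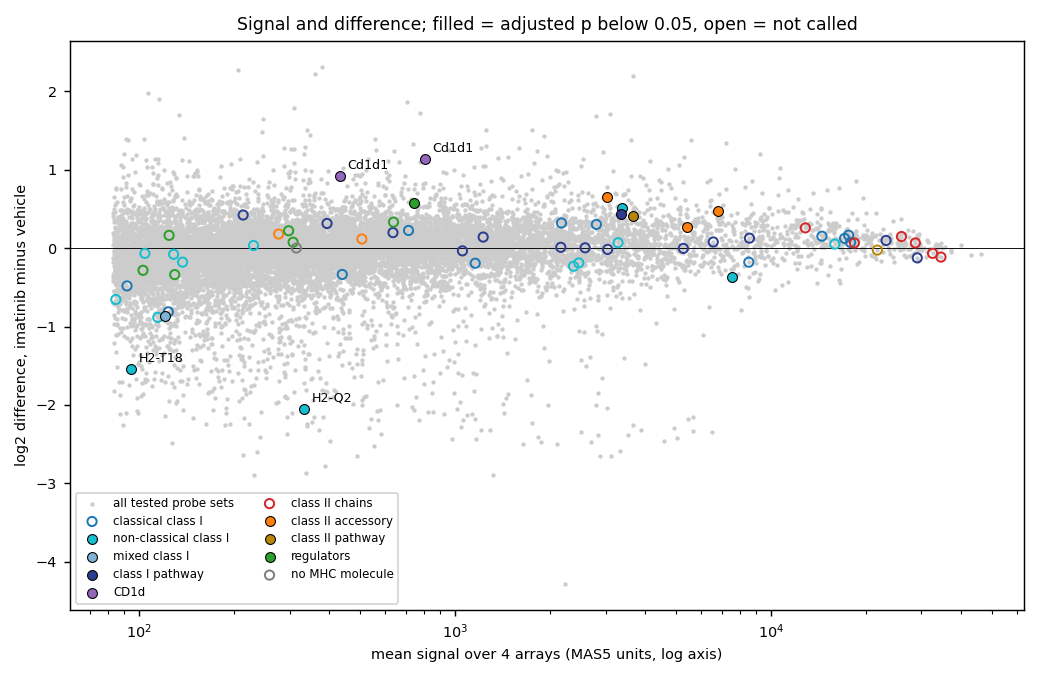
log2 difference, imatinib minus vehicle, against the mean signal over 4 arrays on a log axis, for all 13576 tested probe sets (grey) and the 64 tested members (coloured by class, filled when called). The class II chains lie at the bright end between -0.11 and 0.26, and the called decreases of H2-Q2 and H2-T18 lie at low signal.

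Where a gene had several tested probe sets they often differed in sign. Of 11 such genes 4 had 1 sign in all probe sets (Canx, Cd1d1, Ciita and H2-Ab1) and 7 had both signs. Of the 11, Cd1d1 alone had more than 1 called probe set, and both of its probe sets were higher. Agreement of calls within a gene could therefore not be judged for the others.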

How the data were processed

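Per the submitters' processing notes, the authors computed the deposited signal intensities, which are linear, by MAS5 (Affymetrix Expression Console); no settings or versions were stated. With 2% trimmed from either end, each array had a mean of 500.3. Labelling used 200 ng of RNA per array.

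Of 22690 probe sets 64 controls were left out. The annotation gave 1 symbol for 20380 of the others, several for 691 and none for 1555. Values were tested as log2(signal + 32) with limma (lmFit, eBayes with a trend, two-sided; prior 8.39 and residual 2 degrees of freedom) above the 40th percentile of mean signal, 1 row per probe set, with Benjamini-Hochberg adjustment. The procedure was also run on simulated arrays with independent noise. That setting does not cover 2 arrays run from 1 pool, and no result here rests on it. Same-numbered arrays of the 2 groups showed a correlation of deviations of -0.10, so the numbers were not used as pairs.

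The members, lists, tests and alternatives were chosen with earlier results of these data known. All members are named. Of the pathway lists the called genes and up to 2 bright others are named. Of the marker lists counts and up to 3 genes are given. Zbtb46 was added as a defining dendritic marker and Jchain as the brightest B and plasma cell marker. R 4.3.3, limma 3.58.1, Python 3.11.15, pandas 2.3.3, numpy 2.4.6 and matplotlib 3.10.9 were used. The number of arrays limits the precision.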

Additional observations from a re-analysis of the deposited data

How the results depend on the processing

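Of all tested probe sets, 842 were higher and 1002 lower in the fit reported. The higher count became 434 without the signal filter, 1583 with equal array medians, 171 with equal macrophage markers, 550 with 1 probe set per gene and 262 without the variance trend, and the lower count 635 without the filter, 7882 with equal macrophage markers and 640 without the trend. The 9 higher members became 14 with equal medians, 2 with equal macrophage markers and 4 without the trend. The 4 lower members became 1 without the filter, 2 each at the 60th percentile filter, with quantile normalization, with equal medians and with 1 probe set per gene, 38 with equal macrophage markers and 1 without the trend. Leaving out 1 array at a time gave 303 to 646 higher and 600 to 798 lower probe sets, and 4 to 10 higher and 1 to 4 lower members.

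Class medians moved as follows. Classical class I (0.10) went to -0.027 with quantile normalization, 0.26 with equal medians, -0.36 with equal macrophage markers, 0.23 without _s_at and _x_at probe sets and 0.052 to 0.18 with 1 array left out. Non-classical class I (-0.18) went to -0.21 with a pseudocount of 1, -0.073 without the filter, -0.077 at the 60th percentile, -0.023 with equal medians, -0.64 with equal macrophage markers, -0.66 with 1 probe set per gene and -0.31 to -0.13 with 1 array left out. Class II chains (0.07) went to 0.0055 with quantile normalization, 0.23 with equal medians, -0.39 with equal macrophage markers, -0.066 with 1 probe set per gene, 8.2e-05 without _s_at and _x_at probe sets and 0.026 to 0.089 with 1 array left out. Class II accessory (0.27) went to 0.43, -0.19 and 0.18 with equal medians, equal macrophage markers and 1 probe set per gene, and 0.24 to 0.30 with 1 array left out. The class I pathway (0.09) went to 0.011 without the filter, 0.0079 with quantile normalization, 0.25, -0.37 and 0.045 under the same 3 settings, and 0.025 to 0.073 with 1 array left out.

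With equal macrophage markers, which shifts every difference by -0.46, these values, called in either fit, changed sign: B2m -0.36, Calr -0.38 and -0.46, Canx -0.33 and -0.32, Pdia3 -0.028, Tap1 -0.45, H2-DMb1/H2-DMb2 -0.19, H2-Oa -0.34, H2-Aa -0.31, H2-Ab1 -0.39, -0.39 and -0.20, Ifi30 -0.043, H2-D1 -0.29 and -0.33, H2-K1 -0.39 and -0.31, H2-Ke6 -0.46, H2-T-ps/H2-T23 -0.41, and H2-T9/H2-T22/H2-T10 -0.39. Each of these changes in value is that constant shift alone. Why the macrophage markers differed between the groups was not tested.

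With the replicate number as a block, 763 of 1750 called probe sets were higher, and 8 members were higher and 3 lower. The brighter H2-DMb1/H2-DMb2 probe set (adjusted p = 0.0714) and H2-Q5/H2-K1 (adjusted p = 0.0546) lost their calls and no other member call changed. The numbers share no stated pairing. With 2 arrays per group, dim probe sets had wide errors, such as 0.54 (SE) for H2-M10.1 and 0.39 for H2-T18.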
